A study of Mus musculus with 13 samples.

Results

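Cytosolic ribosomal protein genes were chosen by symbol among the mouse protein-coding genes on the assembled chromosomes. The symbols were Rpl or Rps followed by digits and an optional a, b, x, y or l, together with Rplp0, Rplp1 and Rplp2, and the S6 kinase genes were left out. The rule found 80 of 21887 genes, of which 47 encode proteins of the large subunit, 3 the proteins of its stalk and 30 proteins of the small subunit. The gene bounds are those of RefSeq on GRCm38.p6, the assembly known as mm10, and all positions below are on it. The data are lists of regions enriched in chromatin immunoprecipitation with sequencing (ChIP-seq) in Ba/F3, a mouse pro-B cell line that needs interleukin 3 (IL3) to grow and survive. The cells were kept in 1 ng/mL IL3. In the condition without IL3 they were deprived of it for 6 h, and in the condition with IL3 they were deprived for the same 6 h before 30 min in 10 ng/mL, so both conditions share the deprivation. Formaldehyde-fixed chromatin was precipitated with antibodies to STAT5A, the transcription factor activated through the IL3 receptor, to LSD1, a histone demethylase, or to HDAC3, a histone deacetylase. With 2 biological replicates for every protein and condition, and a further list that the authors made from the pooled reads of each group, there are 12 replicate lists and 6 pooled lists. All libraries come from 1 cell line, and region lists hold no expression levels, so the cell type could not be checked against markers.

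The cytosolic ribosome translates the messenger RNAs of the nuclear genome. Its proteins are encoded by short, very highly transcribed genes scattered over the chromosomes, and their messenger RNAs are known for a 5′ terminal oligopyrimidine (TOP) tract, a C at the start followed by pyrimidines, through which growth signals control their translation. Growth factor signals such as IL3 are known to raise ribosome production in blood cells.

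The RefSeq promoter table held the sequence around the start of 60 of the 80 members, and 9 of these are printed here because the results below turn on them. Rpl18, Rps15, Rpl37, Rpl9 and Rpl10a lie under called regions of STAT5A or LSD1 in several replicate lists. Rplp2 and Rpl14 were among the members with STAT5A in both replicates with IL3 alone, and Rpl35 and Rplp0 hold a STAT motif. Each stretch runs 5′ to 3′ on the strand of the gene and ends 20 bases after the start, and begins 120 bases before it, or 250 bases before it for Rpl35 and Rplp0. Capitals mark the motifs searched, on either strand: CGGAAG for ETS factors, TTCNNNGAA for STAT factors, GATAAG for GATA factors, TGACGTCA for CREB and ATF factors, and at the start the TOP tract. In Rpl35 the capitals inside the promoter are a STAT match and an ETS match that overlap. The stretches of Rpl9 and Rpl10a hold none of these motifs.
Rpl18 chr7:45717951-45718090, plus strand: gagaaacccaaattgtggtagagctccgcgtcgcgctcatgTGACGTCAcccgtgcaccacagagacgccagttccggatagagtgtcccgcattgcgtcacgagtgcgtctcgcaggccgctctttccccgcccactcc
Rps15 chr10:80292311-80292450, plus strand: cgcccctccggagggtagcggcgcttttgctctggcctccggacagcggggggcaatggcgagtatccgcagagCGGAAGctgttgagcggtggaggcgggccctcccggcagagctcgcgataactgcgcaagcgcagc
Rpl37 chr15:5116493-5116632, plus strand: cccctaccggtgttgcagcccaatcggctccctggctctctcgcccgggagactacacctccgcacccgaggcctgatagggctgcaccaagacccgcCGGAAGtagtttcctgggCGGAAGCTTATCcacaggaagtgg
Rpl9 chr5:65391412-65391551, minus strand: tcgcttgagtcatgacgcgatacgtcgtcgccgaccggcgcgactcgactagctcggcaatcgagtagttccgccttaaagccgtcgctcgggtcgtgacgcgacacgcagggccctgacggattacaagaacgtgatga
Rpl10a chr17:28328351-28328490, plus strand: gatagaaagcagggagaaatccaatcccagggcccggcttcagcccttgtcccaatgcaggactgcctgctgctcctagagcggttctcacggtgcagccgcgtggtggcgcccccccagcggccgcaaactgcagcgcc
Rplp2 chr7:141447531-141447670, plus strand: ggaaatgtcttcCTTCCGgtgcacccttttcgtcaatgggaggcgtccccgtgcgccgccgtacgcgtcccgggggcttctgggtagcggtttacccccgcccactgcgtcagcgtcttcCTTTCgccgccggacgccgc
Rpl14 chr9:120571397-120571536, plus strand: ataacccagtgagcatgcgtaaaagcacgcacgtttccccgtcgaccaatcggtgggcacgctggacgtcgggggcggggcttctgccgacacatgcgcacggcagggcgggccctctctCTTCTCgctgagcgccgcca
Rpl35 chr2:39005112-39005381, minus strand: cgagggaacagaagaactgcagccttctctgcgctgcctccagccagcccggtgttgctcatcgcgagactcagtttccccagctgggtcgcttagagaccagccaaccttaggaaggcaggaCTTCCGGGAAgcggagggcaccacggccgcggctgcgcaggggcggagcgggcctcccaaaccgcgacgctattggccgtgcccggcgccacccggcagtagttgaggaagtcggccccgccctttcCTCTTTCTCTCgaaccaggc
Rplp0 chr5:115559217-115559486, plus strand: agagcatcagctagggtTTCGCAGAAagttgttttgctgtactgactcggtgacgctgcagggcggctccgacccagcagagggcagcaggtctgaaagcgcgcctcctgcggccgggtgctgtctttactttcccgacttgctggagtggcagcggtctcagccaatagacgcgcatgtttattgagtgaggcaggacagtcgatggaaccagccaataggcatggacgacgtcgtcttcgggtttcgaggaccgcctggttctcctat

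The replicate lists were of very unequal length, from 265 to 15786 regions. The shortest list of STAT5A was replicate 1 without IL3 with 354 regions, and the shortest of LSD1 was replicate 1 without IL3 with 1007, against 4513 and 15786 in their partners. In the list of HDAC3 with IL3, replicate 2, 234 of 265 regions lay on assembled chromosomes, and 1 region held 79.5% of the summed score. The number of reads per library was not given in the sources used here, so the depth behind a called region is unknown, and a gene without a region may lie below the threshold of that list. Counts of genes are therefore set beside the percentage of all 21887 genes that met the same criterion in the same list. A gene counted as having a region when the centre of a region lay within 1 kb, or in a wider count within 10 kb, of either bound of the gene. The members are short, with a median span of 3169.5 bp against 17169 bp over all genes, so these windows cover most of a member and only the ends of a typical gene.

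STAT5A regions lay within 1 kb of more ribosomal protein genes with IL3 than without. Without IL3, replicate 1 had such a region at 1 member (1.25%, against 0.439% of all genes) and replicate 2 at 10 (12.5%, against 13.6%). With IL3, replicate 1 had one at 21 members (26.2%, against 10.8%) and replicate 2 at 20 (25%, against 13.7%). Both lists with IL3 stood above both without, and the member share exceeded the share of all genes by 15.5 and 11.3 percentage points with IL3, and by 0.811 and -1.1 points without. The mean was 5.5 ± 6.36 members without and 20.5 ± 0.707 with IL3 (SD, n = 2), and a comparison of 2 lists with 2 cannot give a two-sided exact permutation p below 0.333, which is what it gave (adjusted over 6 tests, 1.0). Within 10 kb the counts were 3 members (3.75%, against 1.23%) and 19 (23.8%, against 21.4%) without IL3, and 42 (52.5%, against 30.1%) and 34 (42.5%, against 23.8%) with IL3, again with no overlap (two-sided exact permutation p = 0.333, adjusted 1.0). With only the 250 highest-scoring regions of each list the difference was -0.5 members at both distances, and with starts alone it was 9.0 within 1 kb. In the pooled lists 19 members (23.8%, against 13.9%) had a STAT5A region within 1 kb without IL3 and 38 (47.5%, against 18.8%) with IL3, and within 10 kb it was 28 (35.0%, against 22.4%) and 55 (68.8%, against 37.6%).

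LSD1 regions lay at 2 members (2.5%, against 1.77% of all genes) and 25 (31.2%, against 24.3%) without IL3, and at 20 (25%, against 12.8%) and 24 (30.0%, against 23.9%) with IL3. The conditions overlapped, since replicate 2 without IL3 had the highest count of the 4 lists. The means were 13.5 ± 16.3 and 22.0 ± 2.83 members (SD, n = 2), a difference of 8.5 (exact permutation p = 1.0, two-sided), and without the short replicate 1 list the difference was -3.0. Within 10 kb LSD1 had 4 members (5.0%, against 3.85%) and 42 (52.5%, against 41.4%) without IL3, and 29 (36.2%, against 22.7%) and 41 (51.2%, against 37.6%) with IL3. This wider difference was 12 members (two-sided exact permutation p = 1.0, n = 2), and -7.0 without the same list. With only the 250 highest-scoring regions of each list both LSD1 differences were 0.0, and with starts alone they were 3.5 and 5.5. The pooled lists had LSD1 within 1 kb of 29 members (36.2%, against 27.1%) without IL3 and 44 (55.0%, against 31.1%) with IL3.

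HDAC3 regions were few, and those within 1 kb of members came from replicate 2 of each condition. Within 1 kb, replicate 1 had none without IL3 (0.0%, against 1.2% of all genes) and none with IL3 (0.0%, against 0.576%). Replicate 2 had 5 members without IL3 (6.25%, against 0.781%) and 8 with IL3 (10.0%, against 0.32%), although it was the shorter list of its pair in both conditions. The means were 2.5 ± 3.54 and 4.0 ± 5.66 members (SD, n = 2), and the difference of 1.5 had an exact permutation p of 1.0 (two-sided). That difference was -1.0 without replicate 1 of the lists without IL3 and -2.5 without replicate 2 of those with IL3. Within 10 kb the counts were 4 members (5.0%, against 4.09%) and 8 (10.0%, against 2.07%) without IL3, and 0 (0.0%, against 1.7%) and 11 (13.8%, against 0.864%) with IL3, a difference of -0.5 (two-sided exact permutation p = 1.0, n = 2) that was 5.0 without replicate 1 with IL3 and 1.5 without replicate 2 without IL3. The pooled lists had 7 members (8.75%, against 4.39%) and 4 (5.0%, against 1.42%) within 1 kb, and 13 (16.2%, against 10.3%) and 5 (6.25%, against 3.76%) within 10 kb.

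**Figure D1:**
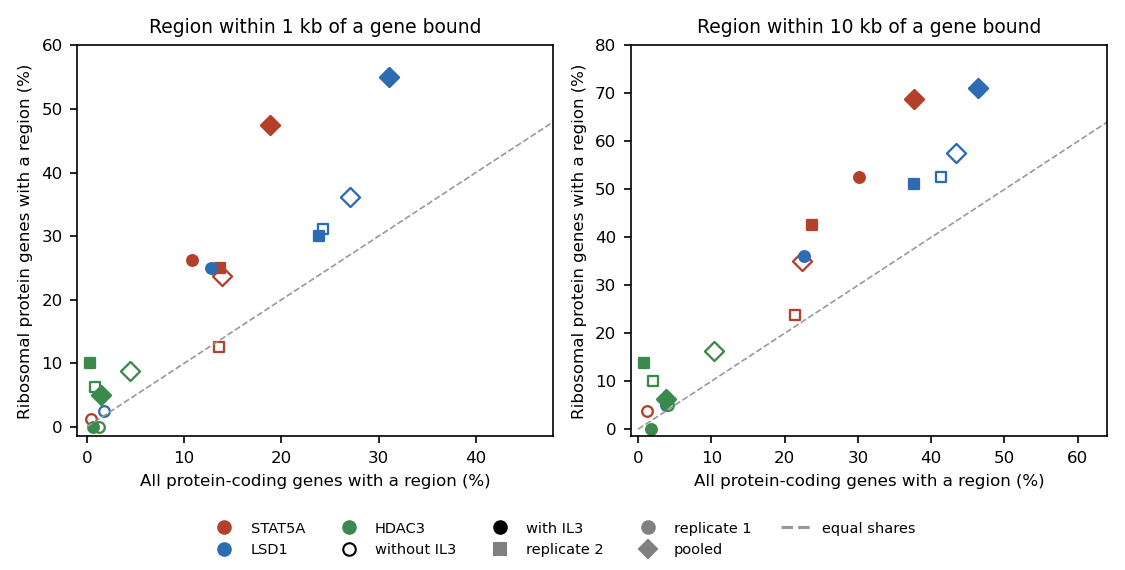
Share of the 80 ribosomal protein genes with a region (vertical axis, %) against the share of all 21887 protein-coding genes (horizontal axis, %) in each of the 18 lists, for regions within 1 kb (left) and 10 kb (right) of a gene bound. Colours mark the protein, open and filled symbols the conditions without and with IL3, and the dashed line equal shares. Points lie above the line in 9 of 12 replicate lists at 1 kb and 11 of 12 at 10 kb, and in all 6 pooled lists at both distances.

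The share of members exceeded the share of all genes in 9 of 12 replicate lists within 1 kb, in 11 of 12 within 10 kb, and in 6 of 6 pooled lists at both distances. The 3 lists below at 1 kb were STAT5A without IL3 replicate 2 and both HDAC3 replicate 1 lists. When regions anywhere inside the gene were counted too, which adds more to long genes than to the short members, the member share was higher in 7 of 12 replicate lists. In that count STAT5A was at 2.5% of members (against 1.04%) and 16.2% (against 17.6%) without IL3, and at 30.0% (against 24.1%) and 27.5% (against 19.4%) with IL3. LSD1 was at 2.5% (against 3.23%) and 33.8% (against 34.4%) without IL3, below all genes in both lists, and at 27.5% (against 18.6%) and 32.5% (against 31.6%) with IL3. The HDAC3 replicate 1 lists were at 0.0% of members, against 3.63% without and 1.53% with IL3. Averaged over the 4 lists of a protein, the excess was 6.63 ± 8.04 percentage points for STAT5A, 6.5 ± 4.71 for LSD1 and 3.34 ± 5.18 for HDAC3 (SD, n = 4). The proteins did not differ beyond the spread of their lists, which come from both conditions, so the spread also holds any difference between conditions. For STAT5A it covered 0.811 and -1.1 points without IL3 and 15.5 and 11.3 with IL3. STAT5A exceeded LSD1 by 0.137 points (two-sided exact permutation p = 0.971, adjusted over 3 comparisons 0.971, n = 4). STAT5A exceeded HDAC3 by 3.29 points (exact permutation p = 0.457, adjusted 0.686, n = 4) and LSD1 exceeded HDAC3 by 3.15 points (exact permutation p = 0.429, adjusted 0.686, n = 4). The sign of the difference between STAT5A and LSD1 changed without either STAT5A list with IL3 (-2.81 without replicate 1 and -1.43 without replicate 2) or without LSD1 replicate 1 without IL3 (-1.78).

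Both subunits were represented. With IL3, STAT5A lay within 1 kb of 10 of 47 large-subunit genes in each replicate (21.3%) and of 9 of 30 small-subunit genes in each (30.0%). Of all genes, 10.8% in replicate 1 and 13.7% in replicate 2 had such a region. LSD1 with IL3 lay at 9 (19.1%) and 17 (36.2%) large-subunit genes in replicates 1 and 2, against 12.8% and 23.9% of all genes. It lay at 11 (36.7%) and 5 (16.7%) small-subunit genes in the same lists, in replicate 2 below the share of all genes. The order of the subunits thus differed between its replicates. The products of the 3 stalk genes recruit the elongation factors to the ribosome. LSD1 lay at 0 of these genes in both replicates without IL3 (against 1.77% and 24.3% of all genes). With IL3 it lay at 0 in replicate 1 and 2 in replicate 2. STAT5A lay at 0 of the stalk genes in both replicates without IL3 (against 0.439% and 13.6%), and at 2 in replicate 1 and 1 in replicate 2 with IL3.

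**Figure D2:**
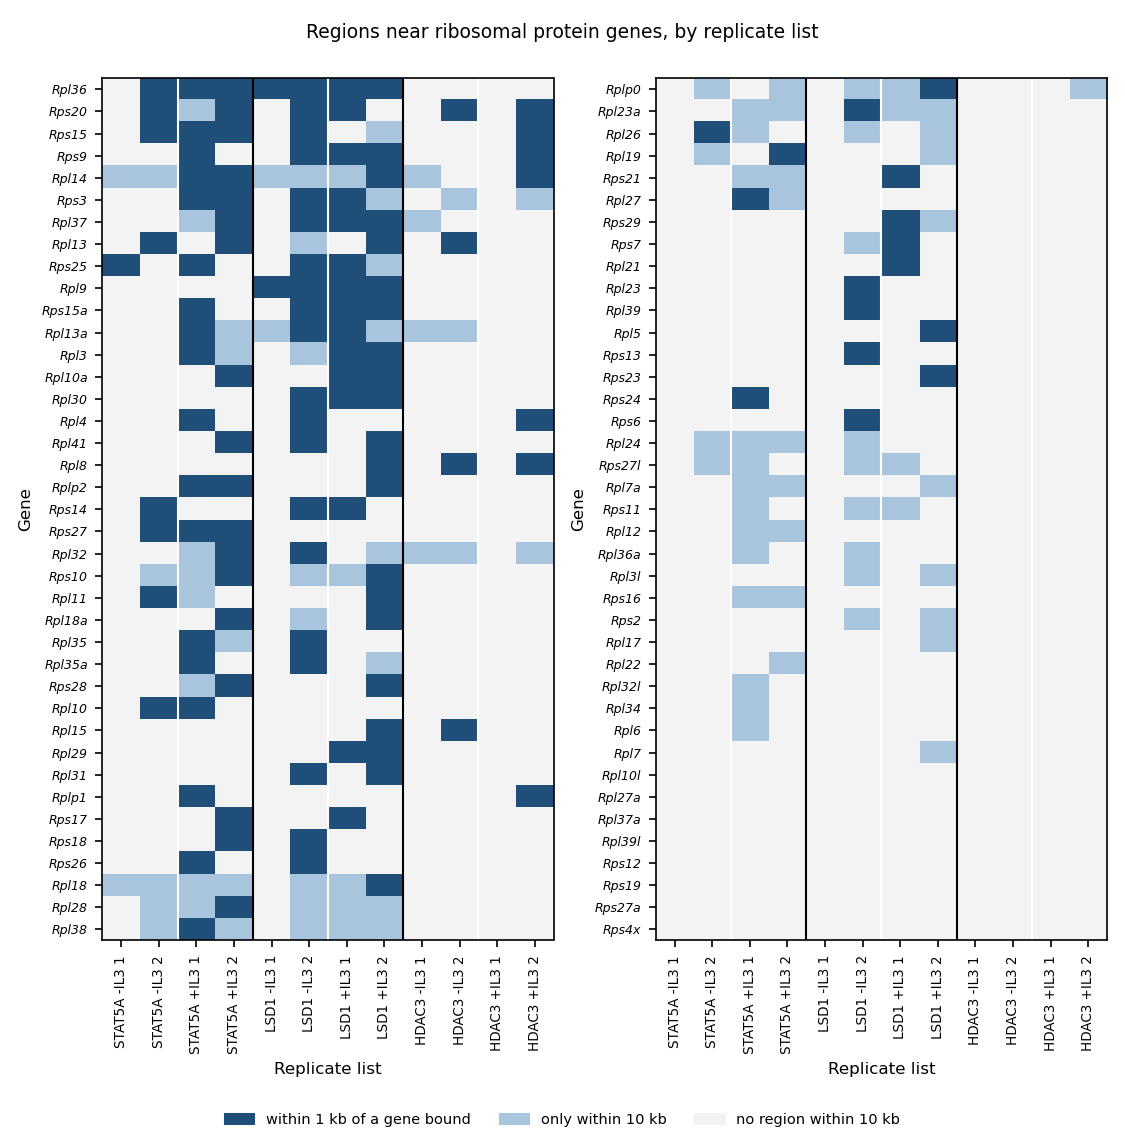
Ribosomal protein genes (vertical axis, 78 of the 80) in each of the 12 replicate lists (horizontal axis), ordered by the number of lists with a region within 1 kb. Dark cells mark a region within 1 kb of a gene bound, light cells a region only within 10 kb. Rpl36 heads the grid with 7 lists, and the columns of HDAC3 replicate 1 hold no dark cell.

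STAT5A was gained at 3 members, meaning that both replicates with IL3 and neither without had a region within 1 kb. They were Rps3, a small-subunit protein at the entry of the messenger RNA channel, Rplp2 of the stalk and Rpl14 of the large subunit, 3.75% of the members against 2.1% of all genes. No member was lost, the reverse pattern, against 0.0366% of all genes. The gained count rests on how strictly the lists are read: it was 14 without STAT5A replicate 1 with IL3, 16 without replicate 2 with IL3 and 6 without replicate 2 without IL3. With a list left out, all genes were not counted, so these numbers have no background share and say nothing particular to the members. At Rps3 the regions of both replicates overlapped, at chr7:99483391-99483563 in replicate 1 and chr7:99483476-99483656 in replicate 2, centred 232 and 143 bp downstream of the start and inside the gene, with scores at percentiles 55.1 and 45.8 of their lists. At Rplp2 and Rpl14 the regions of the replicates did not overlap. Replicate 2 had its region at the start of Rplp2 (chr7:141447667-141447847, 106 bp downstream) and of Rpl14 (chr9:120571383-120571563, 44 bp upstream), while the regions of replicate 1 lay 889 bp and 359 bp beyond the 3′ ends. The printed promoters of Rplp2 and Rpl14 both begin their transcript with a TOP tract, and the printed stretch of Rpl14 lies within the replicate 2 region.

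In all, 6 members had STAT5A within 1 kb in both replicates with IL3 (7.5%, against 4.26% of all genes), namely the 3 gained genes with Rps15, Rps27 and Rpl36. Replicate 1 had it at 21 members and replicate 2 at 20, so most members of either list were absent from the other. Over all genes 932 were in both lists, of 2359 in replicate 1 and 2989 in replicate 2. No member had STAT5A in both replicates without IL3 (0.0%, against 0.27%). At Rps15, which encodes a small-subunit protein, the STAT5A regions were centred 193 bp downstream of the start in replicate 2 without IL3, 43 bp upstream in replicate 1 with IL3 and 66 bp downstream in replicate 2 with IL3. Rps27, which encodes a zinc-binding small-subunit protein, had its regions 108, 78 and 154 bp downstream of the start in the same 3 lists. Both genes thus had STAT5A in 3 of 4 lists and lacked it in the shortest, and no member had it in all 4 (0.0%, against 0.164%). In at least 1 of the 4 lists, 38 members had STAT5A (47.5%, against 25.6%).

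The STAT5A pattern with the most lists was at Rpl18, a large-subunit gene that the count at gene bounds missed. Its RefSeq start lies 2604 bp inside the gene bounds, and a STAT5A region covered its promoter in all 4 replicate lists. Without IL3 the regions were chr7:45717837-45718071 in replicate 1 (percentile 66.5 of its list by score) and chr7:45717958-45718098 in replicate 2 (percentile 99.5). With IL3 they were chr7:45717880-45718052 (percentile 80.6) and chr7:45717930-45718110 (percentile 88.8). LSD1 regions covered the same stretch in replicate 2 without IL3 (percentile 57.7) and in replicates 1 and 2 with IL3 (percentiles 20.2 and 77.1). The 7 lists with a region at this start compare with 1 list with a region at a bound of Rpl18. A bound of the neighbouring gene Sphk2 lay nearer to these regions than those of Rpl18, so they cannot be assigned to 1 of the genes by distance. The printed Rpl18 promoter holds the palindrome TGACGTCA, and the STAT motif was not found in its 300 bases. Rps27l, a paralogue of Rps27, was likewise missed, with a start 1462 bp from the nearest bound, regions near the start in 4 replicate lists and in 0 lists by its bounds.

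LSD1 was gained at Rpl29, Rpl3 and Rpl10a (3.75%, against 1.73% of all genes), and no member lost it (0.0%, against 0.0457%). Rpl3 reaches the peptidyl transferase centre of the large subunit, and Rpl10a forms its L1 stalk. At these 3 genes the regions of the replicates with IL3 overlapped. At Rpl10a they were chr17:28328388-28328536 and chr17:28328399-28328595, over the start, at percentiles 57.5 and 77.1. At Rpl3 they lay 143 and 123 bp inside the gene (percentiles 57.5 and 42.7), and at Rpl29 494 and 581 bp inside (percentiles 41.0 and 12). As for STAT5A, the count was larger with a list left out: 16 without LSD1 replicate 1 with IL3, 9 without replicate 2 with IL3 and 7 without replicate 2 without IL3. Without LSD1 replicate 1 without IL3, 12 members counted as lost, and without STAT5A replicate 1 without IL3, 3 counted as lost for STAT5A. These counts too have no share of all genes beside them.

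LSD1 lay within 1 kb of 9 members in both replicates with IL3 (11.2%, against 9.64% of all genes), and of Rpl9 and Rpl36 in all 4 lists (2.5%, against 0.987%). The 9 compare with 20 members in replicate 1 and 24 in replicate 2 with IL3. Over all genes 2111 were in both of these lists, of 2795 in replicate 1 and 5233 in replicate 2. At Rpl9, a large-subunit gene, the regions were centred 122 and 50 bp upstream of the start without IL3 (percentiles 39.7 and 22.1). With IL3 they were centred 167 bp downstream in replicate 1 and 61 bp upstream in replicate 2 (percentiles 57.5 and 64.2). Lias, the gene on its other side, had the nearer bound for the 3 upstream regions. Rpl37 and Rpl30, both of the large subunit, had LSD1 in 3 lists each and lacked it in the shortest. At Rpl37 the percentiles were 71.4 without IL3 and 91.8 and 64.2 with IL3, and at Rpl30 they were 86.9 without IL3 and 20.2 and 95.5 with IL3. The upstream regions of Rpl37 lay nearer to a bound of Card6. In at least 1 of the 4 lists, 47 members had LSD1 (58.8%, against 33.2%).

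Most HDAC3 regions within 1 kb of members were centred inside the gene, as were most regions at all gene ends in the replicate 2 lists. In the replicate 1 lists, which had 0 regions at members, the share at all gene ends was 48.7% without and 55.9% with IL3. In replicate 2 it was 6 of 7 without IL3 (85.7%, against 85.8% of the regions at all gene ends of that list) and 13 of 13 with IL3 (100%, against 91.2%). For the other proteins the share varied between the replicate lists with 10 or more such regions. It ran from 34.8% (STAT5A replicate 1 with IL3, against 48.5%) to 80% (LSD1 replicate 1 with IL3, against 69.1%). A region in Rpl32 lay nearer to a bound of Cand2. Of the 11 HDAC3 regions in or within 1 kb of members in replicate 2 without IL3, 7 overlapped a region of replicate 2 with IL3. Counting whole gene bodies with the 1 kb flanks, 6 members had HDAC3 in replicate 2 without IL3 (7.5%, against 1.6% of all genes) and 11 with IL3 (13.8%, against 0.612%), 13 in either and 4 in both. The 4 included Rpl8, Rps3 and Rps20. Several genes carried more than 1 region. Rpl8, whose protein lies at the peptidyl transferase centre, had 3 regions in each list, among them chr15:76904853-76904999 without IL3 (percentile 99.8 of its list by score) and chr15:76904880-76905032 with IL3 (percentile 86.8). Rps3 had 3 regions in each list, all more than 1 kb inside the gene, the highest at percentile 98.2 without IL3 and 44.7 with IL3. Rpl4, whose protein lines the exit tunnel for the new chain, had 4 regions in replicate 2 with IL3 and 0 in replicate 2 without. The pooled list with IL3 had 0 regions within 10 kb of Rpl4, so the 4 rest on 1 library.

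**Figure D3:**
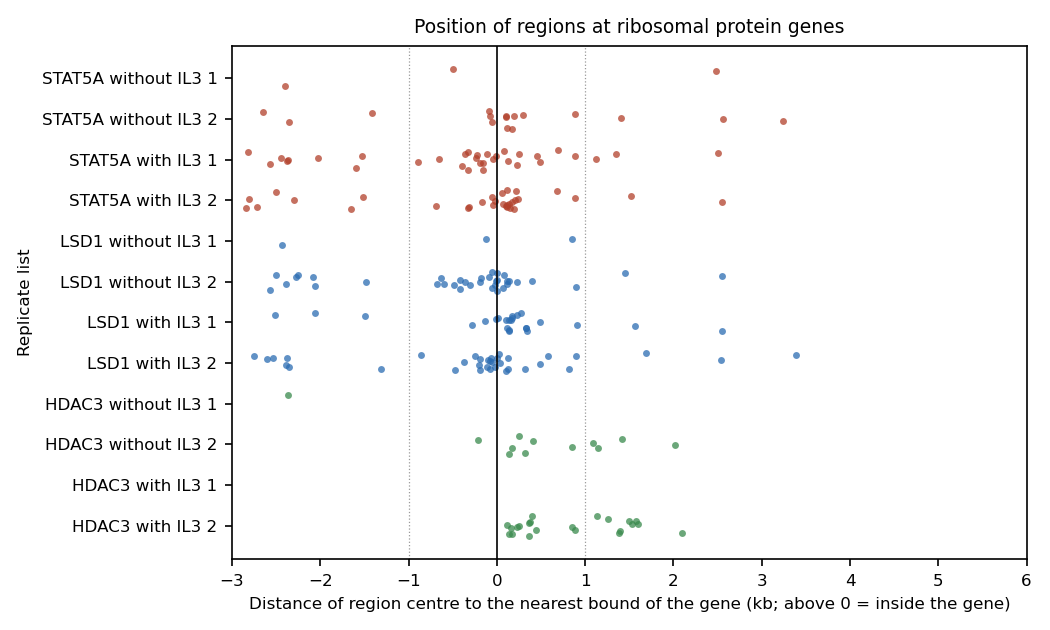
Distance of the centre of each region to the nearest bound of the ribosomal protein gene (horizontal axis, kb, above 0 inside the gene and below 0 outside), for each of the 12 replicate lists (vertical axis). Dotted lines mark 1 kb, and regions farther outside a gene than the left edge of the axis are not drawn. Points of STAT5A and LSD1 lie on both sides of the bounds, and most points of HDAC3 replicate 2 lie inside the genes, up to about 2.1 kb from a bound.

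The regions within 1 kb of members made up 5.56% of the assembled regions of HDAC3 replicate 2 with IL3 and 1.31% of those of replicate 2 without IL3, against 0.0% in both replicate 1 lists. In the 12 lists no other share exceeded 0.35%. HDAC3 lay within 1 kb in the replicate 2 lists of both conditions and in neither replicate 1 list at 3.75% of members, Rps20 and Rpl8 among them, and at 0.0822% of all genes. No member had it in the replicate 1 lists alone, against 0.0868% of all genes. For STAT5A the replicate 2 lists alone held 3 members, Rps20 and Rpl13 among them (3.75%, against 4.87%) and the replicate 1 lists alone Rps25 (1.25%, against 0.0777%). For LSD1 the replicate 2 lists alone held Rpl31 and Rpl41 (2.5%, against 8.37%) and the replicate 1 lists alone no member (0.0%, against 0.00914%). HDAC3 lay within 1 kb of 10 members in at least 1 list (12.5%, against 2.46%). No member was gained or lost for HDAC3, against 0.0% and 0.0594% of all genes. Without replicate 1 with IL3, 5 members counted as gained, and without replicate 1 without IL3, 2 counted as lost, again with no count of all genes. The part of the replicate number in this pattern was not tested, and with 2 replicates the number cannot be told apart from whatever else differed between the libraries.

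For the 60 members with a listed start, regions of STAT5A and LSD1 were more often at starts than at 3′ ends. In the pooled lists with IL3, STAT5A lay within 1 kb of the start of 27 members (45.0%, against 19.6% of 17492 genes with a listed start) and of the 3′ end of 7 (11.7%, against 1.93%). LSD1 lay at the start of 29 (48.3%, against 32.9%) and at the 3′ end of 3 (5.0%, against 2.48%). Without IL3 STAT5A lay at the start of 14 members (23.3%, against 14.8%) and LSD1 at the start of 21 (35.0%, against 28.4%). HDAC3 lay at the start of 1 member (1.67%, against 0.126%) and at the 3′ end of 4 (6.67%, against 0.194%) in replicate 2 with IL3. In replicate 2 without IL3 it lay at the start of 2 (3.33%, against 0.446%) and at the 3′ end of 0 (0.0%, against 0.429%). Both replicate 1 lists of HDAC3 had 0 members at starts (0.0%, against 1.25% without and 0.543% with IL3) and 0 at 3′ ends. The pooled HDAC3 lists had 2 starts (3.33%, against 4.49%) without IL3 and 1 (1.67%, against 1.41%) with IL3. At 3′ ends these pooled lists had 0 members (0.0%, against 0.76% without and 0.206% with IL3).

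Some of the 3′ regions were found in several lists. Rps9, a small-subunit gene near the messenger RNA entry, had STAT5A 326 bp beyond its 3′ end with IL3 in replicate 1 (chr7:3707137-3707309, percentile 90.3) and LSD1 at 189 bp beyond in replicate 2 without IL3 (percentile 92.1) and at 279 and 252 bp beyond with IL3 (percentiles 76.9 and 42.7). The HDAC3 region of Rps9, in replicate 2 with IL3, lay inside the gene, 142 bp from that end. At Rps15a, STAT5A and LSD1 regions likewise lay 394 to 484 bp inside the 3′ bound, and further LSD1 regions lay 73 bp downstream of the start in replicate 2 without IL3 and 225 bp downstream in replicate 1 with IL3.

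Rpl36, a large-subunit gene on chromosome 17, had a region within 1 kb in 7 of 12 replicate lists, the most of any member. All 7 lists had a region about 0.9 kb inside the gene, for example chr17:56613273-56613453 for STAT5A with IL3 in replicate 2 and chr17:56613256-56613452 for LSD1 with IL3 in replicate 2. STAT5A had percentile 95.9 without IL3 in replicate 2 and 73.5 and 86.3 with IL3, and it had no region there in replicate 1 without IL3. LSD1 had percentiles 39.7 and 47.8 without IL3 and 76.9 and 64.2 with IL3. HDAC3 was called there only in the pooled list without IL3 (percentile 60), and in 0 of its 4 replicate lists. In replicate lists with IL3 a further region lay outside the other bound, nearer to Micos13. It was at 323 and 313 bp for STAT5A in replicates 1 and 2 and at 470 bp for LSD1 in replicate 2. The pooled STAT5A list without IL3 also held a region there, at 256 bp (chr17:56609759-56609917, percentile 77.3), so it was not particular to the condition with IL3.

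Rps20 had a region in 6 replicate lists and was the only member with a region called for all 3 proteins in both conditions of the pooled lists. Of 207 merged regions found in all 6 pooled lists, 1 lay within 1 kb of a member, and it was at this gene. STAT5A lay there in replicate 2 without IL3 (52 bp outside the gene, percentile 26.1) and in replicate 2 with IL3 (16 bp outside, percentile 4.0). LSD1 lay there in replicate 2 without IL3 (113 bp inside, percentile 57.7) and replicate 1 with IL3 (143 bp inside, percentile 4.4). HDAC3 lay there in replicate 2 of both conditions (167 and 169 bp inside, percentiles 37.7 and 53.6). The scores were thus low to middling within their lists.

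Taking the pooled lists, 24 members (30.0%, against 13.8% of all genes) had STAT5A and LSD1 but not HDAC3 within 1 kb with IL3, among them Rpl9, Rpl10a, Rpl36, Rps3 and Rplp2. Without IL3 the count was 6 (7.5%, against 8.69%), among them Rps14, Rps15, Rps25, Rpl37 and Rpl41. With IL3, 11 members had STAT5A alone (13.8%, against 4.06%), 17 LSD1 alone (21.2%, against 16.0%), and 24 none of the proteins (30.0%, against 64.7%). Without IL3, 10 had STAT5A alone (12.5%, against 2.98%), 18 LSD1 alone (22.5%, against 14.7%) and 39 none (48.8%, against 69.2%). All 3 proteins were called at Rps20, Rpl13 and Rpl36 without IL3 (3.75%, against 2.03%) and at Rps20 and Rps15 with IL3 (2.5%, against 0.877%). Sharing a gene did not always mean sharing a region. Of 43 STAT5A regions at members with IL3, 20 overlapped an LSD1 region (46.5%, against 45.5% of STAT5A regions at all gene ends), and without IL3 it was 8 of 21 (38.1%, against 51.6%).

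The regions of STAT5A and LSD1 within 1 kb of members had median score percentiles of 25.7 to 55.1 in the 12 lists of these proteins, against 34.3 to 55.1 for regions at all gene ends. Scores are the authors' own values for each region and were ranked within 1 list only. In the pooled lists with IL3, the regions within 1 kb of members had a median percentile of 43.1 for STAT5A (43 regions, from 1.8 to 90.6) and 48.3 for LSD1 (46 regions, from 1.3 to 95.0), against 34.3 and 48.3 over regions at all gene ends. HDAC3 had 7 such regions with a median percentile of 90.8, against 28.3, and 3 of the 7 lay at Rpl8. In HDAC3 replicate 2 with IL3 the median over 13 regions was 30.6, against 30.6. In replicate 2 without IL3 it was 95.3 over 7 regions, against 37.7, and the replicate 1 lists had 0 such regions. Among the 250 highest-scoring regions of each list, 0 members were within 1 kb in the STAT5A lists with IL3 (against 0.0959% and 0.228% of all genes) and 0 in the 4 LSD1 lists (against 0.0822% to 0.238%). Rpl36 was near such a region in STAT5A replicate 2 without IL3 (1.25%, against 1.07%), as were Rpl36 and Rpl10 in the pooled STAT5A list without IL3 (2.5%, against 0.959%). Rpl8 was near such a region in HDAC3 replicate 2 without IL3, where 2.5% of members were, against 0.274% of all genes.

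Few of the members' promoters held a STAT motif, including those under STAT5A regions. The motif TTCNNNGAA was found in 3 of 60 promoters (5.0%, against 8.92% of 17492), those of Rpl35, Rpl4 and Rplp0, with 300 bases searched on both strands from 250 before to 50 after the start. STAT5A regions of the pooled list with IL3 overlapped 19 of the 60 promoters (31.7%, against 11.9% of all), and of these 19 only Rpl35 holds the motif, in the overlapping STAT and ETS match printed above. Over all genes it was 338 of 2074. At Rpl35 the STAT5A region was called in replicate 1 with IL3. Rplp0, whose match is printed above too, had STAT5A over its promoter only in the pooled list without IL3, and LSD1 in replicate 2 with IL3. That STAT5A region, chr5:115559370-115559528, lay downstream of the match and did not cover it. No match says only that these letters are not in this window.

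Other sequence features of the 60 promoters were counted in the same way. The ETS motif CGGAAG was in 40 of 60 promoters (66.7%, against 23.5%), and the printed promoters of Rpl37, Rps15, Rplp2 and Rpl35 show it. A TOP tract, a C at the listed start followed by 4 or more pyrimidines, was present in 14 (23.3%, against 2.67%). Only the exact listed base was read as the start, so a tract beginning at a neighbouring base was not counted. AAGATGGC, the YY1 motif, was in 5 (8.33%, against 3.57%), GATAAG in 11 (18.3%, against 8.07%), TATAAA in 7 (11.7%, against 14.8%) and TGACGTCA in 5 (8.33%, against 2.54%), the last motif having been added after the sequences were seen. The 5 promoters with TGACGTCA were those of Rpl13, Rpl18, Rpl26, Rpl27a and Rps9. Median GC content was 56.6% in the members and 56.3% over all, and the median number of CpG in 300 bases was 21 and 13.

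A group of genes of like role gave a reference for the size of these shares. Nuclear genes for mitochondrial ribosomal proteins, 78 by symbol, had STAT5A within 1 kb in 2.56% and 23.1% without IL3 and in 21.8% and 28.2% with IL3. For LSD1 these shares were 3.85% and 51.3% without IL3 and 19.2% and 38.5% with IL3. The cytosolic members, at 1.25% and 12.5%, then 26.2% and 25% for STAT5A, had the lower share in 3 of the 4 lists of that protein and the higher in 1. HDAC3 was at 0 of the 78 mitochondrial genes in both replicate 2 lists (against 0.781% and 0.32% of all genes) and at 1 of them (1.28%) in each replicate 1 list (against 1.2% and 0.576%). In the pooled lists the groups lay closer. HDAC3 was at 5.13% of the mitochondrial genes without IL3 (8.75% of the members and 4.39% of all genes). With IL3 it was at 3.85% of them (5.0% of the members and 1.42% of all genes). The difference between the 2 groups of genes was not tested.

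**Figure D4:**
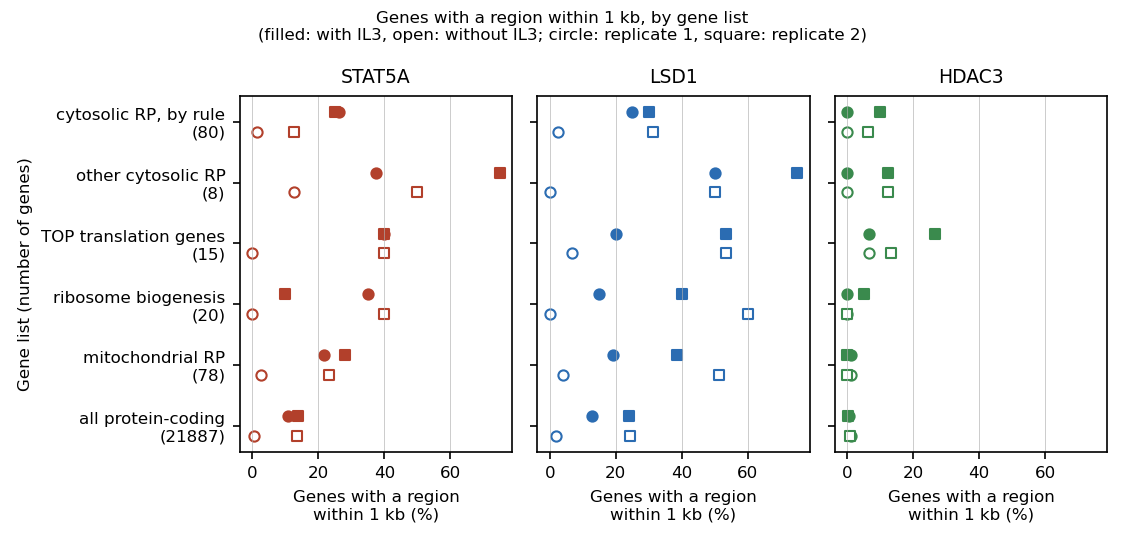
Share of genes with a region within 1 kb (horizontal axis, %) for the 80 cytosolic ribosomal protein genes, 4 other gene lists and all protein-coding genes (vertical axis, number of genes in brackets), in each replicate list of STAT5A, LSD1 and HDAC3. Open symbols are without IL3 and filled symbols with IL3, circles are replicate 1 and squares replicate 2. For HDAC3 the mitochondrial genes are at 0 in both squares, where the cytosolic genes are at 6.25% and 10.0%. In both circles the mitochondrial genes are at 1.28% and the cytosolic genes at 0.0%. Pooled lists are not drawn.

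The other members differed widely. Within 1 kb of a bound, 23 members had no region in any replicate list, 19 had one in 1 list, 15 in 2, 12 in 3, 7 in 4, 2 in 5, 1 in 6 and 1 in 7. The 2 with 5 lists were Rps15 and Rps9. Those with 4 included Rps25, whose regions lay nearer to Trappc4 in 3 of the 4 lists, and Rpl13, where STAT5A, LSD1 and HDAC3 regions of 4 replicate lists lay 105 to 174 bp downstream of the start. Rpl41, the shortest of all ribosomal proteins, had 3 lists, with regions beyond its 3′ bound and nearer to Zc3h10. Rpl10, which joins the large subunit late in its maturation, had STAT5A in replicate 2 without IL3 (86 bp upstream of the start, percentile 94.6) and replicate 1 with IL3 (8 bp upstream, percentile 55.1), and no LSD1 or HDAC3 region within 1 kb in any of the 18 lists. Rpl15 had LSD1 in replicate 2 with IL3 and HDAC3 in replicate 2 without IL3, both upstream of the start and nearer to Nkiras1. Within 10 kb, 5 members had no region in any of the 18 lists: Rpl37a, Rpl27a, Rps27a, Rpl10l and Rpl39l. Rpl10l and Rpl39l are known as testis-expressed copies of Rpl10 and Rpl39.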

How the data were processed

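ChIP-seq regions of STAT5A, LSD1 and HDAC3 in Ba/F3 cells were taken from 12 replicate lists and 6 pooled lists, grouped by the labels. Per the submitters' processing notes, Trimmomatic 0.30, Bowtie2 2.1.0, Picard 1.92 and HOMER 4.8 were used with the mm10 assembly. The caller's settings, control and threshold, a filter on problem regions if any, and the read totals are each not given in the sources used here. The authors deposited a score with each region. Its scale is not defined, so scores were used only as ranks within 1 list. Region width is fixed within each list. The input library was not used here.

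Python 3.11.15 with numpy 2.4.6, pandas 2.3.3, scipy 1.17.1 and matplotlib 3.10.9 was used. Only regions on assembled chromosomes were kept. Distance ran from a region's centre to either bound of a RefSeq gene (GRCm38.p6), and an overlap of at least 1 bp made regions shared. Starts, strands and sequences came from the RefSeq promoter table. Exons are not in the tables used. Numbers of members per list, and shares less the share of all genes, were compared by two-sided exact permutation tests over lists, with Benjamini-Hochberg adjustment and a threshold of 0.05. The counting and the tests were tested on simulated data. The labels call the replicates biological. How reads that match several places, such as copies of ribosomal protein genes, were handled is not stated in the sources used.

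Named members were those with a region within 1 kb in both replicates of a group, the 6 with the highest-scoring region in each pooled list, and gained or lost members, up to 30, and those with no region within 10 kb. Rpl18, Rps27l, Rpl4, Rplp0 and Rpl35, and members named as counts of 5 or fewer or as examples, were chosen after their values were seen. The members and lists were chosen with earlier results of these data known. The count of regions inside the gene and the motif TGACGTCA were added after seeing the data. The alternatives were other distances, shorter lists, the nearest gene only, the start only, pooled lists, shared regions left out, a replicate block and each list left out. Results for 2 members are not reported here by name, though all counts include them.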

Additional observations from a re-analysis of the deposited data

How the results depend on the processing

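No test of the members passed its threshold under any setting, and with 2 lists a group none of the comparisons of conditions could. With the lists limited to their 250 highest-scoring regions, the difference with IL3 less without was -0.5 members for STAT5A within 1 kb and -0.5 within 10 kb, and 4.0 for HDAC3 within 10 kb. The same setting gave -3.05 percentage points for STAT5A against HDAC3, -3.09 for LSD1 against HDAC3, and 0 gained members for STAT5A and 0 for LSD1. That setting leaves fewer regions in each list. Counting the start alone gave -0.5 for HDAC3 within 1 kb, 1 gained member for STAT5A and 1 for LSD1, over the 60 members with a listed start. The pooled lists gave -3.0 for HDAC3 within 1 kb, the gene with the nearest bound alone gave 2.0 for HDAC3 within 10 kb, and a distance of 2 kb gave 5 gained members for STAT5A. The cause of these changes was not tested. The other 102 results of these alternatives did not change sign or cross the threshold, but some sizes moved. With the 250 highest-scoring regions the LSD1 differences were 0.0 within 1 kb and 0.0 within 10 kb. With starts alone they were 3.5 and 5.5, those of STAT5A were 9.0 and 20, and STAT5A exceeded LSD1 by 3.46 points. With each list left out in turn, the differences ran from 10.5 to 19.5 (1 kb) and 19.0 to 35.0 (10 kb) for STAT5A, -3.0 to 20 and -7.0 to 31.0 for LSD1, and -2.5 to 5.5 and -6.0 to 5.0 for HDAC3. Those between proteins ran from -2.81 to 2.71 points (STAT5A against LSD1), 0.342 to 5.86 (STAT5A against HDAC3) and 1.24 to 5.26 (LSD1 against HDAC3). Gained members ran from 3 to 16 for STAT5A, 3 to 16 for LSD1 and 0 to 5 for HDAC3, and lost members from 0 to 3, 0 to 12 and 0 to 2. All genes were not counted under these settings, so the ranges show only how the counts depend on single lists. With the replicate block the STAT5A differences stayed 15.0 and 27.0 (exact sign-flip p = 0.5, the smallest possible with 2 pairs), those of LSD1 8.5 and 12 and those of HDAC3 1.5 and -0.5 (exact p = 1.0). Over all genes the difference of replicate 1 and 2 correlated between conditions at 0.247 for STAT5A, 0.245 for LSD1 and 0.0959 for HDAC3, and the labels do not say that a number pairs samples. A log2 ratio of shares gave no value for the comparisons with HDAC3, whose shares include 0. Depth is unknown, and short lists limit all counts of absent regions.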

Other observations

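Other genes of the translation machinery carried HDAC3 regions in the same lists as the cytosolic ribosomal protein genes. Of 15 translation factor and related genes of the TOP class, counting gene bodies with 1 kb flanks, 3 had HDAC3 in replicate 2 without IL3 (20%, against 1.6% of all genes) and 6 in replicate 2 with IL3 (40%, against 0.612%). The 3 were Eef1b2, Eif3f and Eef2, and the 6 were Eef1b2, Eef1a1, Eef2, Tpt1, Pabpc1 and Eef1d. Eef1a1 and Eef1b2 encode subunits of elongation factor 1, Eef2 the translocation factor and Pabpc1 the poly(A)-binding protein. In both replicate 1 lists Eef1a1 was the only gene of this list with a region (6.67%, against 3.63% of all genes without and 1.53% with IL3). Rack1, a small-subunit scaffold protein whose symbol falls outside the rule for the members, had HDAC3 in both replicate 2 lists and in neither replicate 1 list. Of 20 genes for ribosome biogenesis, Npm1 alone had HDAC3, in replicate 2 with IL3 (5.0%, against 0.612% of all genes). None had it in the other 3 replicate lists, where 3.63% and 1.6% of all genes without IL3 and 1.53% in replicate 1 with IL3 did. With 20 genes such low shares leave few to be found.

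For STAT5A the order of the biogenesis genes and the members was not the same in all lists. Within 1 kb, 0 of the 20 biogenesis genes had STAT5A in replicate 1 without IL3 (1.25% of the members and 0.439% of all genes did) and 8 in replicate 2 without IL3 (40%, with 12.5% of the members and 13.6% of all genes). With IL3 it was 7 in replicate 1 (35.0%, with 26.2% and 10.8%) and 2 in replicate 2 (10.0%, with 25% and 13.7%). Rrn3, a factor of RNA polymerase I, and Rrp1b had STAT5A in 3 of 4 lists, counting gene bodies. None of these differences between gene lists was tested.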
